A study of Mus musculus with 2 samples.

Results

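The 48 genes described here mark the phases of the cell cycle. Of these, 21 act in DNA replication and in the entry into S phase, 25 act in mitosis, and 2, Stmn1 and Hmgb2, were placed in neither group. They were chosen by name from what they are known to do, and each symbol matched 1 of the 34290 genes of the count matrices. The study compared tumours that MC38, a colorectal cancer line of the mouse, formed in untreated mice 21 days after engraftment. In the vector control group the engrafted cells carried an empty vector, and in the TMEM16F KO group they lacked TMEM16F, a calcium-activated phospholipid scramblase encoded by Ano6. Each group was 1 droplet single-cell library of dissociated tumour tissue. How many mice or tumours went into a library, and of which strain, sex and age, the sources used here do not say.

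Neither group had a replicate. No test could therefore be run, and an effect of the knockout cannot be told apart from variation among tumours or preparations. Values are numbers of unique molecular identifiers (UMIs, 1 per captured RNA molecule) summed over the cells of a class. They are given as CPM, the number of UMIs scaled to the same total of UMIs in each set of cells. Intervals are at 95% and cover the error of counting alone. Where few cells hold most UMIs of a gene, the true error is larger.

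The kept cells numbered 5028 in the vector control library (43012160 UMIs) and 5688 in the TMEM16F KO library (45859868 UMIs), with medians of 6019.5 and 5995 UMIs per cell. Cells were classed by marker UMIs, with no cell cycle gene among the markers, and 7 classes held at least 50 cells in each library. Of the defining markers, Cd8a stood at 910 CPM (vector control) and 972.5 CPM (TMEM16F KO) in CD8 T-like cells and Ncr1 at 343 and 339 CPM in NK-like cells. Foxp3 stood at 184 and 175.5 CPM in Treg-like cells, which were defined by the sum of Foxp3, Ikzf2 and Il2ra. C1qa stood at 3699 and 3401 CPM in phagocyte-like cells, and Col1a1 at 571 and 586 CPM in stroma-like cells. The 9 dendritic cell markers summed to 2663 and 2506 CPM in DC-like cells, against 44.6 and 32.4 CPM in phagocyte-like cells. No class for epithelial or tumour cells was among those scored, and the keratin Krt8 had at most 1 UMI in any of these classes. Which class holds the engrafted MC38 cells was therefore not determined. Ano6 RNA stood at 28.7 CPM in the vector control and 33.3 CPM in the TMEM16F KO library over all kept cells, and at 66.6 and 47.7 CPM in stroma-like cells (ratio 0.716, 0.498 to 1.01). This does not check the knockout, because host cells carry the gene and 3′ reads can count a transcript that is interrupted upstream.

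A dividing cell copies its DNA in S phase and separates the copies in mitosis. Origins of replication are licensed in G1 when Cdc6 and Cdt1 load the Mcm helicase, and E2F factors then switch on genes for helicases, nucleotide supply and the replication fork. Genes of mitosis are expressed later, in G2 and M phase, under B-MYB, FOXM1 and the MuvB complex, which binds the cell cycle homology region (CHR), together with NF-Y, which binds CCAAT boxes. In growing tumours, T cells, NK cells, macrophages and tumour cells can all divide.

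The promoters of the members differ by phase in the motifs these factors are known for, and these sequences come first because the rest of the account compares the same 2 groups of genes. RefSeq gave promoter sequences for 41 of the 48 members, 44 promoters in all (GRCm38.p6). The 150 bases before each start site were searched on both strands for an E2F motif (TTTCCCGC, TTTCGCGC, TTTGCCGC or TTTGGCGC), a CHR (TTTGAA or TTTAAA) and a CCAAT box (CCAAT). An E2F motif was in 4 of 20 replication promoters (20%), in 1 of 23 mitosis promoters (4.35%) and in 1.24% of all 32851 mouse promoters of that length. A CHR was in 3 of 20 replication promoters (15%), 11 of 23 mitosis promoters (47.8%) and 14.7% of all. A CCAAT box was in 55.0%, 87.0% and 24.5%. All 11 mitosis promoters with a CHR also held a CCAAT box, whereas none of the 20 replication promoters held both, and 3.6% of all promoters did. A match is only a description of the letters, and a promoter without one may hold other forms of the motif.

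The replication promoters of Mcm6 (chr1:128359706-128359855, minus strand), Cdc6 (chr11:98908001-98908150, plus strand) and Hells (chr19:38930840-38930989, plus strand) show the E2F motif in capitals. In Mcm6 the first capital stretch holds 2 overlapping matches, 1 on each strand.
Mcm6: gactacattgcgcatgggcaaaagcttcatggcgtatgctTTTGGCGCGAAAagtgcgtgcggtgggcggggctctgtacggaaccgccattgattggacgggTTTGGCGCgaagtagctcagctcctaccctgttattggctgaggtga
Cdc6: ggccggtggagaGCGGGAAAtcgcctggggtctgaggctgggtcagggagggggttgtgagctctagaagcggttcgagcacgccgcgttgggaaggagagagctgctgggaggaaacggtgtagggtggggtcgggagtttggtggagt
Hells: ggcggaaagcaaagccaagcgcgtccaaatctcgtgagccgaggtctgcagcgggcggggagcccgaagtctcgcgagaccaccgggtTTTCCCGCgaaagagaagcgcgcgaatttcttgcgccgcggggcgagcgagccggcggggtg
The mitosis promoters of Ube2c (chr2:164769779-164769928, plus strand), Cdc20 (chr4:118437344-118437493, minus strand), Ccnb1 (chr13:100786487-100786636, minus strand) and Top2a (chr11:99024190-99024339, minus strand) show both motifs, CHR and CCAAT, in capitals. In Ube2c, Ccnb1 and Top2a the CHR lies between the CCAAT boxes and the start site, and in Cdc20 it lies between 2 CCAAT boxes.
Ube2c: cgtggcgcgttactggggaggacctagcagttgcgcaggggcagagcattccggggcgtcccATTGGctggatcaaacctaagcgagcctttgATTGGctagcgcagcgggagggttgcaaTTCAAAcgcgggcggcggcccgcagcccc
Cdc20: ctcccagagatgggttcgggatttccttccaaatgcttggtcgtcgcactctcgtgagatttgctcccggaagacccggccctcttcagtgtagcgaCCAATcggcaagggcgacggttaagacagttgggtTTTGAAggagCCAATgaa
Ccnb1: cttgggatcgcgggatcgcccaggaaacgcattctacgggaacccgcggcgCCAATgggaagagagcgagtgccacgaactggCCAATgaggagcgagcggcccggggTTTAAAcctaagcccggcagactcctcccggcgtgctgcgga
Top2a: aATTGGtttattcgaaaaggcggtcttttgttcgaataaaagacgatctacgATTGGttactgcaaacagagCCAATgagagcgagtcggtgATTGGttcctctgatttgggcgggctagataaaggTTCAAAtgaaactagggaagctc

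Over all kept cells both groups of genes were lower in the TMEM16F KO library. The replication genes summed to 1073 CPM in the vector control and 678 CPM in the TMEM16F KO library, a ratio of 0.632 (0.623 to 0.641). The mitosis genes summed to 980.1 and 591 CPM, a ratio of 0.603 (0.594 to 0.612). All 46 ratios were under 1. Past 1.5-fold, with at least 20 UMIs over both libraries, 15 of 21 replication genes and 22 of 25 mitosis genes were lower, and none was higher. By the same rule 8.62% of the 16051 genes with enough UMIs were lower and 8.16% were higher. The median log2 ratio was −0.69 for the replication genes, −0.82 for the mitosis genes and 0.02 for all genes. There were 0.913 mitosis UMIs per replication UMI in the vector control and 0.871 in the TMEM16F KO library (ratio 0.954, 0.934 to 0.974). The libraries also differed in make-up: phagocyte-like cells made up 63.2% (vector control) and 55.5% (TMEM16F KO) of the kept cells, and CD8 T-like cells 12.4% and 15%. With each class given its vector control weight, the ratios were 0.625 for replication and 0.66 for mitosis.

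Among the replication genes, the roles stood close together. The 9 genes of origin licensing and the helicase summed to 301 CPM in the vector control and 199 CPM in the TMEM16F KO library, a ratio of 0.66. The 5 genes of nucleotide supply stood at 327 and 192.5 CPM, a ratio of 0.589, and all 5 were past 1.5-fold. Tk1, thymidine kinase, had the lowest ratio of all members (35.7 and 16.7 CPM, 0.467). Dut, which clears dUTP, stood at 166 and 105 CPM (ratio 0.631). The 4 fork and chromatin genes stood at 388 and 248 CPM (ratio 0.638), but their members were apart. Pclaf, which binds the sliding clamp, went from 176 to 87.4 CPM (0.496), whereas Pcna, the clamp itself, stood at 152 and 130.5 CPM (0.856). The 3 genes of G1/S control, Ccne1, Ccne2 and E2f1, had a joint ratio of 0.686. The member with the highest ratio was Cdt1, a licensing factor, at 20.5 and 17.6 CPM (0.859).

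Among the mitosis genes, the 6 kinases and checkpoint genes (Aurka, Aurkb, Plk1, Bub1, Bub1b and the passenger protein Birc5) summed to 199.8 CPM in the vector control and 108 CPM in the TMEM16F KO library, a ratio of 0.54. Birc5 itself, survivin, stood at 115 and 60.9 CPM (0.53). The 4 genes of Cdk1 and its cyclins had a joint ratio of 0.569. Top2a, the topoisomerase that untangles sister chromatids, stood at 82.9 and 46.8 CPM (0.565), and Mki67, the coat of mitotic chromosomes, at 49.7 and 31.2 CPM (0.627). Ube2c, an enzyme of the anaphase-promoting complex, stood at 134 and 84.0 CPM (0.627). The centromere histone gene Cenpa stood at 110 and 87.6 CPM (0.795), and only Kif23, a motor of cytokinesis, was nearer to 1 in this group (0.798). The members on which the account turns most lie, in mm10 with GENCODE vM21, as follows. Pclaf (ENSMUSG00000040204) is at chr9:65890237-65903266 on the plus strand and Pcna (ENSMUSG00000027342) at chr2:132249162-132253314 on the minus strand. Ube2c (ENSMUSG00000001403) is at chr2:164769898-164778822 on the plus strand and Top2a (ENSMUSG00000020914) at chr11:98992943-99024189 on the minus strand. Stmn1, which destabilises microtubules, and Hmgb2, a chromatin protein, belong to neither group: Stmn1 stood at 361 and 231 CPM (0.64) and Hmgb2 at 577.5 and 383 CPM (0.663).

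By cell class, both groups of genes were lower in the TMEM16F KO library in 6 of the 7 classes and higher in 1, the DC-like cells. The ratio of the replication sum ran from 0.532 in NK-like to 1.72 in DC-like cells, and that of the mitosis sum from 0.485 in NK-like to 1.89 in DC-like cells. The order of the lower classes is not firm: the replication intervals of NK-like, phagocyte-like and stroma-like cells overlap, and with each cell weighted alike the NK-like ratios (0.627 and 0.585) were above the phagocyte-like ones (0.57 and 0.498). Stroma-like cells had the highest level of both groups in both libraries but for the replication genes of the TMEM16F KO library, where CD8 T-like cells stood higher. Neutrophil-like (16 and 36 cells) and B-like cells were too few to compare; the neutrophil-like cells held 20 and 131 replication UMIs.

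**Figure D1:**
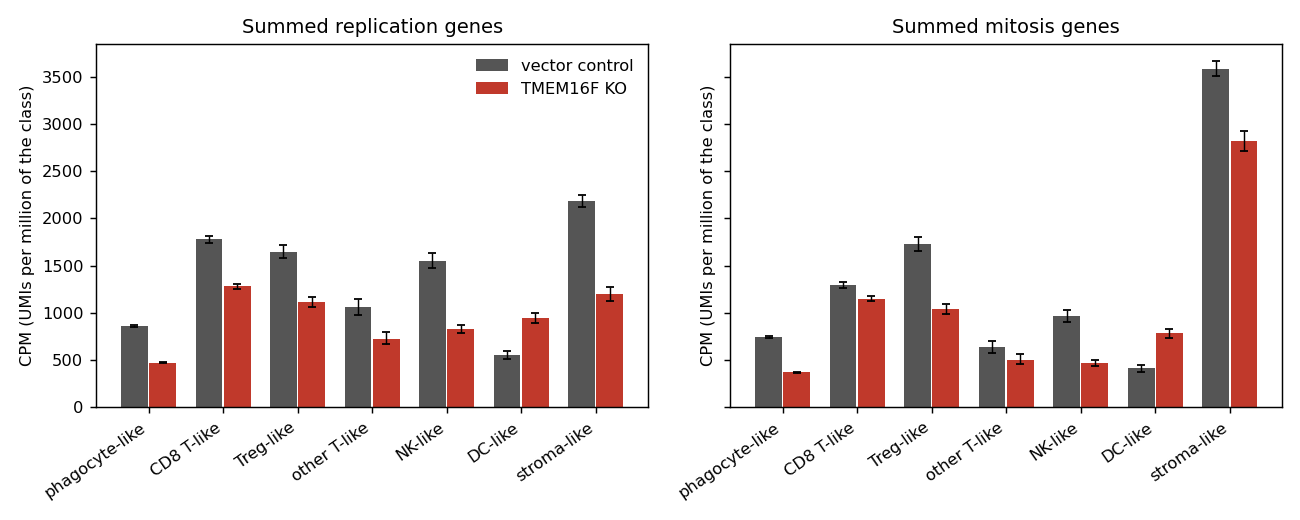
Summed replication genes (left) and mitosis genes (right) in 7 cell classes, in CPM of all UMIs of the class; grey bars are the vector control and red bars the TMEM16F KO library, each 1 library, and error bars are exact 95% Poisson intervals for counting error. The red bar is below the grey bar in every class except the DC-like cells.

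Phagocyte-like cells were the largest class (3179 vector control and 3155 TMEM16F KO cells), and there every member had a ratio under 1. The replication genes summed to 858 CPM in the vector control and 473 CPM in the TMEM16F KO library (ratio 0.552, 0.54 to 0.563), and the mitosis genes to 740.2 and 371 CPM (ratio 0.501, 0.489 to 0.512). Past 1.5-fold, 18 of 21 replication and 24 of 25 mitosis genes were lower, against 5.96% of the 13909 genes with enough UMIs, and none was higher (9.56%). The median log2 ratio was −0.93 and −1.12, against 0.04 over all genes. There were 0.863 mitosis UMIs per replication UMI in the vector control and 0.783 in the TMEM16F KO library (ratio 0.908, 0.88 to 0.936). The 4 members short of 1.5-fold, named here after their values were seen, were Pcna (0.853), Cdt1 (0.806), E2f1 (0.771) and the spindle gene Ckap2l (0.744).

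In these phagocyte-like cells Pclaf had the lowest ratio of all members, with 148 CPM in the vector control and 49.5 CPM in the TMEM16F KO library (0.334, 0.314 to 0.354). The highest ratio was that of Pcna, which stood at 144 and 123 CPM. Both proteins act at the same sliding clamp. The 5 nucleotide supply genes were lower together (224 and 102.5 CPM, ratio 0.458), among them Rrm2, the small subunit of ribonucleotide reductase (30.9 and 12.0 CPM, 0.389), and Tyms, thymidylate synthase (36.6 and 16.0 CPM, 0.438). Of the helicase and licensing genes, Mcm3 stood at 48.7 and 27.0 CPM (0.554) and Mcm6 at 37.3 and 20.8 CPM (0.557). All 6 Mcm genes had ratios between 0.524 (Mcm2) and 0.635 (Mcm4).

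Of the mitosis genes in phagocyte-like cells, the motor gene Kif11 had the lowest ratio (11.0 and 4.1 CPM, 0.372). Top2a stood at 54.3 and 21.7 CPM (0.4), Mki67 at 40.0 and 17.7 CPM (0.443) and Birc5 at 97.3 and 42.9 CPM (0.44). Ube2c stood at 91.7 and 53.5 CPM (0.583) and Cenpa at 81.1 and 52.5 CPM (0.647). Stmn1, at 307 and 155 CPM (0.505), and Hmgb2, at 420.1 and 236 CPM (0.562), were lower by similar amounts.

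The ratio varied with the level of complement C1q genes, which rise as monocytes become tissue macrophages. Cells were split by their C1qa, C1qb and C1qc UMIs per 10000, with bounds set after the data had been seen. Under 10 such UMIs (537 vector control and 702 TMEM16F KO cells) the mitosis genes stood at 256 and 264 CPM (ratio 1.03, 0.953 to 1.12) and the replication genes at 433 and 317 CPM (0.732). Between 10 and 60 (783 and 972 cells) the mitosis genes stood at 634 and 254 CPM (0.4) and the replication genes at 761 and 384 CPM (0.505). At 60 or more (1859 and 1481 cells) they stood at 869.5 and 454 CPM (0.522) and at 973 and 562 CPM (0.578). The mitosis genes of the 2 libraries were thus apart in the upper 2 bands, while in the lowest band their interval included 1. The lowest band held few dividing cells. Among cells thinned to 2000 UMIs, 16 cells of each library in that band had at least 5 UMIs of the 46 genes. The ratio of the shares of such cells was 0.734 (0.371 to 1.45) there. In the next band it was 0.428 (0.292 to 0.626) and in the highest 0.439 (0.363 to 0.531), so the intervals overlap. The difference between bands was not tested.

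**Figure D2:**
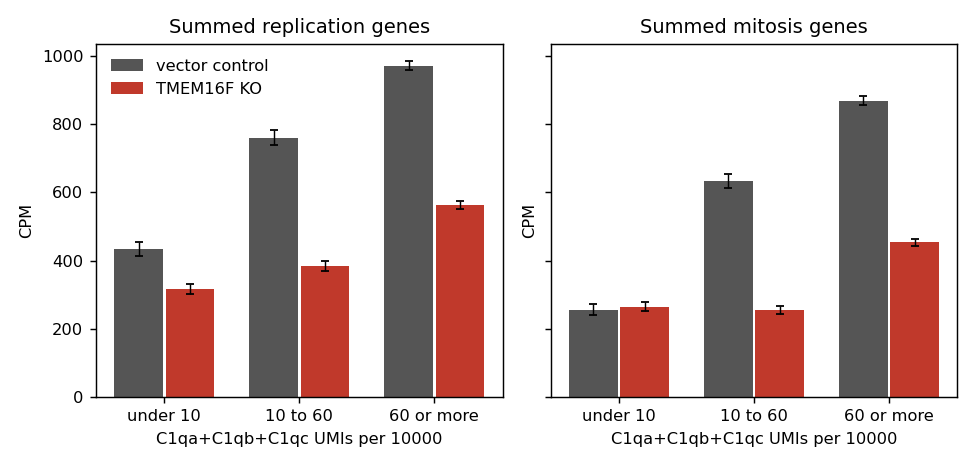
Summed replication genes (left) and mitosis genes (right) of phagocyte-like cells, in CPM, in 3 bands of C1q UMIs per 10000 UMIs of a cell; grey bars are the vector control and red bars the TMEM16F KO library, with exact 95% Poisson intervals. The bars of the mitosis genes are level under 10 C1q UMIs (256 and 264 CPM), where few cells were dividing, and apart above it.

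In CD8 T-like cells (623 vector control and 856 TMEM16F KO cells) the replication genes were lower in the TMEM16F KO library and the mitosis genes less so. The replication genes summed to 1781 and 1281 CPM (ratio 0.719, 0.697 to 0.742). The mitosis genes summed to 1296 and 1148.5 CPM (ratio 0.886, 0.856 to 0.917). There were 0.728 mitosis UMIs per replication UMI in the vector control and 0.897 in the TMEM16F KO library, a ratio of 1.23 (1.18 to 1.29). Past 1.5-fold, 9 of 21 replication genes and 2 of 25 mitosis genes were lower, against 8.62% of 11023 genes, and none was higher (8.06%). The share of mitosis genes was thus near that of all genes, and 19 of the 25 had a ratio under 1. The median log2 ratio was −0.50 for replication, −0.28 for mitosis and −0.01 for all genes.

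Hells, a chromatin remodeller of S phase, had the lowest ratio in CD8 T-like cells, with 66.9 CPM in the vector control and 29.8 CPM in the TMEM16F KO library (0.446, 0.37 to 0.537). The other 8 replication genes past 1.5-fold were Mcm2, Mcm3, Mcm5, Tyms, Tk1, Uhrf1, Ccne1 and E2f1. Dut stood at 395 and 280 CPM (0.708) and Pclaf at 273.5 and 193 CPM (0.705), whereas Rrm2 stood at 81.9 and 76.7 CPM with an interval that included 1 (0.819 to 1.07). The highest ratio was that of Ccnb1, cyclin B1, at 12.2 and 15.2 CPM (1.25, 0.896 to 1.77).

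The 3 centromere genes summed to 259 CPM in the vector control and 260.1 CPM in the TMEM16F KO library in CD8 T-like cells (ratio 1.01, 0.933 to 1.08), and Ube2c with Cdc20 to 181 and 179 CPM (0.991, 0.906 to 1.08). Within that pair Ube2c stood at 151 and 157 CPM (1.04), and Cdc20, named after its values were seen, at 29.4 and 22.1 CPM (0.75, 0.588 to 0.956). The 2 mitosis genes past 1.5-fold were Ccnb2, cyclin B2 (58.4 and 38.3 CPM, 0.656), and Ckap2l (16.6 and 8.45 CPM, 0.509). The mitosis sum rested on the class rule. When the lead of the T cell markers over the next class had to be doubled, 497 and 715 cells were left and the ratio was 1.03 (0.987 to 1.07), while that of the replication genes was 0.816 (0.789 to 0.845). Macrophage markers (9 genes) summed to 494 CPM in the vector control and 900 CPM in the TMEM16F KO CD8 T-like cells. Their part in these differences was not tested.

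Treg-like cells (211 vector control and 298 TMEM16F KO cells) had both groups lower in the TMEM16F KO library. Macrophage markers summed to 570.2 and 986 CPM in these cells, and their part in the difference was not tested. The replication genes summed to 1646 and 1111 CPM (ratio 0.675, 0.633 to 0.719) and the mitosis genes to 1729 and 1039 CPM (0.601, 0.563 to 0.641). Past 1.5-fold, 11 of 21 replication and 16 of 25 mitosis genes were lower, against 8.16% of 8541 genes, and none was higher (9.18%). The lowest ratio was that of Aurkb, the kinase of the chromosomal passenger complex, at 34.0 and 13.1 CPM (0.386), and the highest was that of Kif20b, a cytokinesis motor, at 24.7 and 25.5 CPM (1.03). Ube2c stood at 254 and 122.5 CPM (0.482) and Cdc20, the activator of the anaphase-promoting complex, at 52.5 and 22.9 CPM (0.437). There were 1.05 mitosis UMIs per replication UMI in the vector control and 0.935 in the TMEM16F KO library (ratio 0.891, 0.813 to 0.975). This stands on the other side of 1 from the CD8 T-like cells, and the difference between these classes was not tested.

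Other T-like cells (169 and 229 cells, with few CD8 or Treg marker UMIs) were shallower, with medians of 3170 and 2782 UMIs. Their replication genes summed to 1057 CPM in the vector control and 728 CPM in the TMEM16F KO library (ratio 0.689, 0.612 to 0.774), and the mitosis genes to 635.5 and 506 CPM (0.796, 0.688 to 0.92). Macrophage markers summed to 749 and 1228 CPM here. Of the members with at least 20 UMIs, 8 of 16 replication genes and 4 of 14 mitosis genes were lower past 1.5-fold (7.75% of all genes with enough UMIs) and 1, Ube2c, was higher (15.6%). Kif20b was at 35.7 and 4.19 CPM (22 and 3 UMIs, ratio 0.118, 0.0225 to 0.391), and Ube2c at 35.7 and 57.3 CPM (1.61, 0.934 to 2.83).

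NK-like cells (130 and 257 cells) also had both groups lower. The replication genes stood at 1551 CPM in the vector control and 825 CPM in the TMEM16F KO library (0.532, 0.495 to 0.572) and the mitosis genes at 969 and 470.5 CPM (0.485, 0.442 to 0.533). Of the members with at least 20 UMIs, 14 of 19 replication and 18 of 21 mitosis genes were lower past 1.5-fold, against 8.04% of all genes, and none was higher (12.1%). Rrm2 had the lowest ratio, with 87.9 CPM in the vector control and 17.1 CPM in the TMEM16F KO library (0.194, 0.125 to 0.295). Pclaf stood at 267 and 88.0 CPM (0.33). The licensing factor Cdt1 had the highest ratio, with 17.0 and 19.2 CPM and an interval that included 1 (0.613 to 2.19). The 5 nucleotide supply genes were all past 1.5-fold, with a joint ratio of 0.467. Macrophage markers summed to 494 and 777 CPM in NK-like cells, and their part was not tested. After thinning, 5 vector control and 12 TMEM16F KO cells held 50% of the mitosis UMIs of the class. With classes taken from clusters the ratios were 0.732 (0.621 to 0.864) for replication and 0.417 (0.335 to 0.518) for mitosis.

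DC-like cells (126 vector control and 158 TMEM16F KO cells) were the 1 class with both groups higher in the TMEM16F KO library. The replication genes stood at 548 CPM in the vector control and 944 CPM in the TMEM16F KO library (ratio 1.72, 1.57 to 1.89), and the mitosis genes at 413 and 781 CPM (1.89, 1.7 to 2.1). Of the members with at least 20 UMIs, 12 of 19 replication and 15 of 23 mitosis genes were higher past 1.5-fold, against 12.2% of 7857 genes, and none was lower (7.2%). Nusap1, a spindle protein, had the highest ratio, with 5.84 CPM in the vector control and 41.7 CPM in the TMEM16F KO library (7 and 64 UMIs, ratio 7.14, 3.27 to 18.5). Top2a stood at 20.9 and 77.0 CPM (3.69), Mki67 at 19.2 and 48.9 CPM (2.55) and Pclaf at 99.3 and 214 CPM (2.15). The lowest ratio was that of E2f1, a driver of S phase entry, at 15.9 and 11.1 CPM (0.699, 0.341 to 1.42), and the G1/S control genes together had a ratio of 0.93 (0.605 to 1.44).

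In DC-like cells of both libraries, few cells held much of the mitosis RNA. After thinning every cell to 2000 UMIs, 6 of 118 vector control and 9 of 146 TMEM16F KO cells held 50% of the mitosis UMIs of the class. In phagocyte-like cells these were 130 of 2482 and 89 of 2720, so the counts do not show where the excess lay. With each cell weighted alike the ratios were 1.35 for replication and 1.46 for mitosis, and with classes taken from clusters the replication ratio was 1.12 (1.05 to 1.19). T cell markers (7 genes) summed to 196 CPM in the vector control and 674 CPM in the TMEM16F KO DC-like cells. Without the cells that held at least 3 T cell marker UMIs, an alternative chosen after seeing the data, 113 and 119 cells were left and the ratios were 1.48 (1.33 to 1.65) for replication and 2.63 (2.32 to 2.99) for mitosis. In the 13 and 39 cells left out they were 2.42 and 0.629, so the mitosis genes stood on the other side of 1 there. DC-like cells led by Ccr7, Fscn1 and Ccl22, genes of mature dendritic cells, had ratios of 2.27 and 1.77. Those led by Flt3, Xcr1, Clec9a and Cd209a, genes of conventional dendritic cells, had ratios of 1.45 and 1.86.

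Stroma-like cells (84 vector control and 66 TMEM16F KO cells) held collagen genes and were rich in mitosis genes. Whether engrafted tumour cells are among these stroma-like cells was not tested. The stroma-like class made up 1.67% of the kept vector control cells and held 19.4% of the mitosis UMIs and 10.8% of the replication UMIs of that library. In the TMEM16F KO library they were 1.16% of cells and held 9.38% of mitosis UMIs. By the main class rule the replication genes stood at 2185 and 1199 CPM (ratio 0.549, 0.513 to 0.586) and the mitosis genes at 3585 and 2817 CPM (0.786, 0.751 to 0.822). Per replication UMI there were 1.64 mitosis UMIs in the vector control and 2.35 in the TMEM16F KO library (ratio 1.43, 1.32 to 1.55). The gap between the 2 groups of genes rested on cells near the bound of the class. With a doubled lead, 76 (vector control) and 57 (TMEM16F KO) cells were left, and the ratios were 0.571 (0.532 to 0.613) for replication and 0.563 (0.532 to 0.594) for mitosis. In the cells left out the mitosis genes summed to 1449 CPM (vector control) and 6114 CPM (TMEM16F KO).

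In stroma-like cells 17 of 20 replication genes with at least 20 UMIs and 7 of 25 mitosis genes were lower past 1.5-fold, against 11.9% of 9500 genes, and none was higher (18.2%). Rrm2 had the lowest ratio, at 86.8 and 32.2 CPM (0.371), and Cdc20 the highest, at 136 and 174 CPM (1.28, 1.05 to 1.56). Ube2c stood at 702.5 and 560.2 CPM (0.797), and Top2a at 334 and 171 CPM (0.511). The median depth of these cells was 24321.5 UMIs in the vector control and 8991.5 UMIs in the TMEM16F KO library, and macrophage markers stood at 834 and 1536 CPM. The part of depth and of other cells' RNA in these levels was not tested.

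The same comparison over cells, in place of UMIs, needs equal depth. Each cell with at least 2000 UMIs was therefore thinned to 2000, and a cell with at least 5 UMIs of the 46 replication and mitosis genes was called cycling. Such cells were 736 of 3999 (18.4%, 17.2 to 19.6) in the vector control and 476 of 4858 (9.80%, 8.98 to 10.7) in the TMEM16F KO library, a ratio of 0.532 (0.478 to 0.593). Shallower cells, 1029 and 830, were left out, and without thinning the shares were 42.1% and 33.6%. The call is a cut through a range: 244 and 238 cells held 4 or 5 such UMIs. A cycling cell held 11.6 UMIs of the 46 genes in the vector control and 11.4 in the TMEM16F KO library. Because these cells were selected for UMIs of the same genes, this mean does not separate the share of cycling cells from the level within them. By class it was 10.4 and 9.59 in phagocyte-like cells and 14.7 and 10.2 in NK-like cells.

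By class, the cycling share was 16.2% (403 of 2482) in the vector control and 6.80% (185 of 2720) in the TMEM16F KO phagocyte-like cells, a ratio of 0.419 (0.355 to 0.494). In CD8 T-like cells it was 26.6% (159 of 597) and 17.2% (143 of 832), a ratio of 0.645 (0.528 to 0.788). In Treg-like cells it was 23.3% and 12.6%, and in stroma-like cells 57.1% and 35.3%, each with a ratio interval below 1. In other T-like (11.5% and 8.08%), NK-like (16.8% and 10.0%) and DC-like cells (7.63% and 11.0%, or 9 and 16 cells) the interval of the ratio included 1, so a difference was not detectable at this number of cells. Neutrophil-like cells, which no longer divide once mature, gave 1 of 9 (11.1%) and 1 of 16 (6.25%), with median depths of 2035.5 and 1840 UMIs. The intervals of these shares (0.281% to 48.3% and 0.158% to 30.2%) are too wide to set a background.

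**Figure D3:**
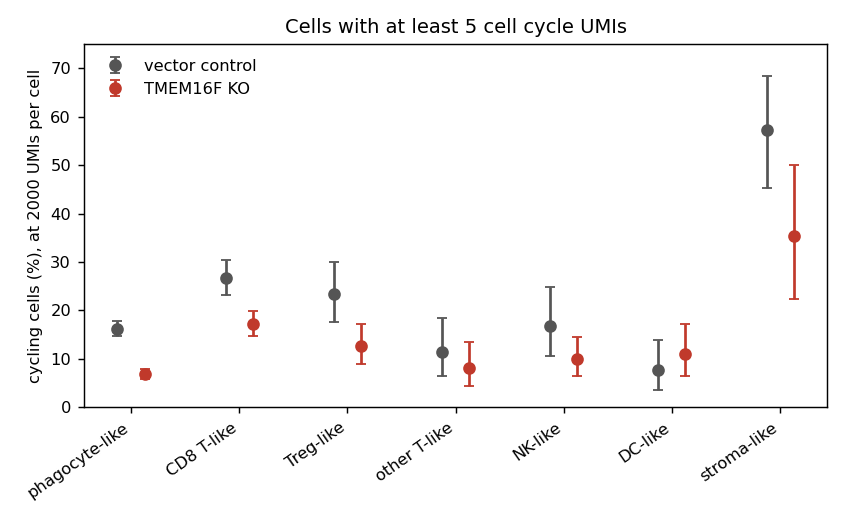
Share of cycling cells (at least 5 UMIs of the 46 genes) among cells thinned to 2000 UMIs, in 7 classes; points are single libraries, grey for the vector control and red for TMEM16F KO, and bars are exact 95% Clopper-Pearson intervals. Phagocyte-like cells are at 16.2% and 6.80%, and the intervals of the DC-like cells (7.63% and 11.0%) overlap.

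Cycling cells were then split by the share of mitosis genes among their UMIs: under 25% (replication only), 25% to 75% (both) and over 75% (mitosis only). In the vector control 31.5% of the cycling cells were replication only, 49.2% both and 19.3% mitosis only. In the TMEM16F KO library these shares were 29.2%, 47.3% and 23.5%. The mitosis-only share was 1.22 times that of the vector control, with an interval that included 1 (0.979 to 1.52). That depended on the setting. At 4000 UMIs per cell the ratio was 1.35 (1.06 to 1.71), and with a cut of 2 UMIs more 1.3 (1.03 to 1.65). At 1000 UMIs per cell it was 1.12 (0.905 to 1.39), with a cut of 1 UMI fewer 1.16 (0.931 to 1.44) and with smaller member lists 1.1 (0.907 to 1.34). In CD8 T-like cells the replication-only share was 44.7% (36.8 to 52.7; 71 of 159 cells) in the vector control and 33.6% (25.9 to 41.9; 48 of 143 cells) in the TMEM16F KO library. The 2 intervals overlap. In phagocyte-like cells the replication-only shares were 27.0% and 27.6%. Phase calls from UMI counts also read RNA from other cells, and that part was not tested.

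A small number of cells carried the bulk of the mitosis RNA. In thinned cells, 204 of 3999 vector control cells and 171 of 4858 TMEM16F KO cells held 50% of all mitosis UMIs, while 403 and 465 cells held 50% of the replication UMIs. Cycling cells held 79.4% of the mitosis and 63.4% of the replication UMIs in the vector control, and 67.2% and 46.5% in the TMEM16F KO library. The cells not called cycling held 0.766 and 0.67 replication UMIs each, and 0.332 and 0.321 mitosis UMIs each. These cells have few UMIs of the members by definition, so their levels are a description and do not compare the libraries.

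The members were placed along the cycle by the company they kept. For each gene, the cycling cells of both libraries were weighted by that gene's thinned UMIs, and the mean mitosis share of the other members' UMIs was taken, leaving the gene itself out. A low value means that the gene was found with replication genes and a high value that it was found with mitosis genes. Because a gene is left out of its own score, abundant replication genes such as Pclaf, Dut and Pcna stand too high on this scale. Abundant mitosis genes stand too low. Pclaf had more thinned UMIs in cycling cells (1236) than Dut (883) or Pcna (659). The cycling call also uses the members' own UMIs. The values are descriptions and have no test.

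The 21 replication genes stood between 28.7% and 51.2% on this scale (median 36.6%), and the 25 mitosis genes between 54.2% and 75.4% (median 62.8%), with no overlap. Within replication, the licensing and helicase genes had the lowest median (34.1%), with a range from 28.7% for Mcm2 to 37.0% for Cdt1. The G1/S control genes stood beside them (33.3% to 37.7%). The nucleotide supply genes came later (40.7% for Dut to 47.0% for Tk1, median 45.3%). The 4 fork and chromatin genes were spread, from 32.1% for Hells to 51.2% for Pclaf (median 37.9%). Pclaf was thus last of the replication genes, but leaving it out of its own score raises this value, and by how much was not tested. Of the 2 members of neither group, Hmgb2 (53.8%) stood between the groups. Stmn1 (47.9%) stood between Tk1 and Pclaf, and so within the range of the replication genes only through Pclaf.

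Within mitosis, Aurkb was first (54.2%), followed by Top2a (55.4%), Cdk1 (55.5%) and Bub1b (55.6%). Ccna2, cyclin A2, which acts in S phase as well as in mitosis, stood at 58.0% and Mki67 at 58.3%. Ccnb2 (68.3%) and Ccnb1 (71.8%), the cyclins of mitosis proper, were later, as were Plk1 (69.7%), Ube2c (70.9%), Hmmr (73.5%), Cdc20 (75.1%) and Cenpf (75.4%). Cdc20 and Ube2c act with the anaphase-promoting complex, which ends mitosis. Of the 4 mitosis promoters shown above, those of Ube2c, Ccnb1 and Cdc20 belong to the late end of this order and that of Top2a to the early end, while Mcm6 (34.1%), Cdc6 (33.6%) and Hells (32.1%) stood at the start of the order.

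The members also differed in how far they were confined to cycling cells. These were again called without the gene itself, over cells of all classes. Of the thinned UMIs of Pcna only 27.1% were in cycling cells, the lowest of all 48, and of those of Cdt1 29.0%. For Pclaf it was 83.1%, for Rrm2 80.8% and for Tk1 76.6%. Among the mitosis genes the range was 41.3% for Cenpa to 87.8% for Ccna2, with Plk1 at 85.9%. Over both libraries Pcna had 22.9 UMIs per 100 cells in the cells not called cycling, and 68.9 in replication-only cells. Pclaf had 3.27 and 61.8, and Ube2c went from 2.92 in non-cycling to 213.6 in mitosis-only cells.

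**Figure D4:**
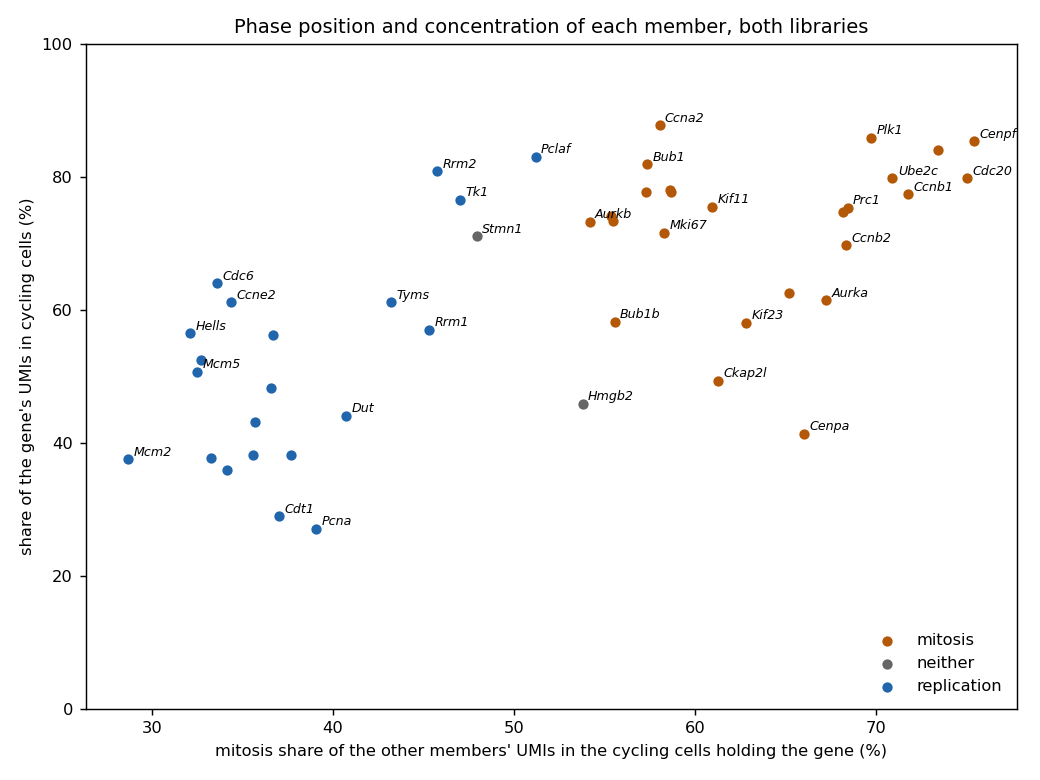
Each of the 48 members by phase position (x axis: mean mitosis share, in %, of the other members' UMIs in the cycling cells that hold the gene) and by the share of its thinned UMIs found in cycling cells (y axis, in %), both libraries together; blue points are replication genes, orange points mitosis genes and grey points Stmn1 and Hmgb2, with some points named. For each point, cycling cells were called without that gene. The groups do not overlap on the x axis, and Pcna (27.1%) and Cenpa (41.3%) are lowest on the y axis within their groups.

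Pcna and Cdt1, the members least confined to cycling cells, also had the ratios nearest 1 over all kept cells. In phagocyte-like cells Pcna, Cdt1, E2f1 and Ckap2l were the 4 members short of 1.5-fold, and Pclaf had the lowest ratio. Over cells of all classes, 27.1% of the thinned Pcna UMIs were in cycling cells. The share was 29.0% for Cdt1, 37.7% for E2f1, 49.3% for Ckap2l and 83.1% for Pclaf. Shares within phagocyte-like cells alone were not taken. Mcm6 (35.9%) and Mcm2 (37.5%) were as little confined over all classes, and had ratios of 0.557 and 0.524 in phagocyte-like cells. The order of the members by one measure is thus not their order by the other. This is a description across genes of 2 libraries, and genes that share cells are not independent. In 38 of the 48 members the phase position was higher in the TMEM16F KO than in the vector control library. The median difference over the 48 was 3.31 percentage points (range −5.08 to 13.9). Mitosis UMIs per replication UMI went the other way over all kept cells (ratio 0.954) and in phagocyte-like cells (0.908), but not in CD8 T-like or stroma-like cells. The cycling cells of the members overlap, so the 48 positions are not independent observations.

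**Figure D5:**
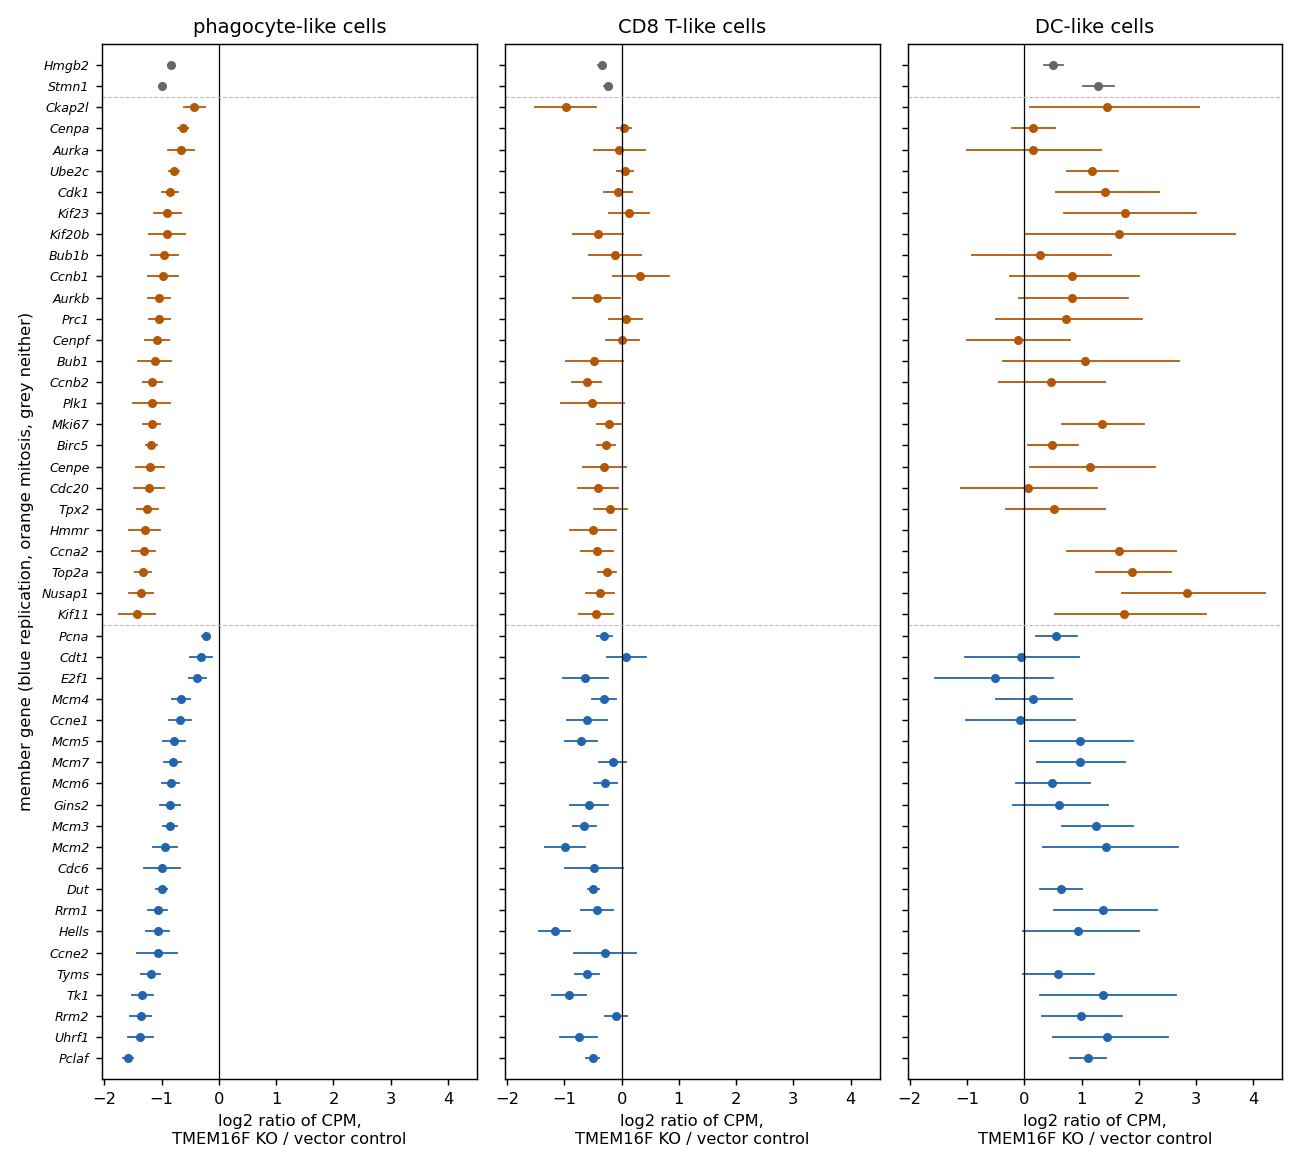
Log2 ratio of CPM, TMEM16F KO over vector control, for each member with at least 20 UMIs over both libraries, in phagocyte-like, CD8 T-like and DC-like cells; points are ratios, lines exact 95% intervals for counting error, and blue, orange and grey mark replication, mitosis and neither. All points of the phagocyte-like panel lie left of 0, the mitosis genes of CD8 T-like cells lie closer to 0 (median −0.28), and nearly all points of the DC-like panel lie right of 0.

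Genes of the same pathway outside the members were lower as well. Of 38 other replication genes, 17 were lower past 1.5-fold over all kept cells and all 38 had a ratio under 1 (median log2 ratio −0.54). Of 48 other mitosis genes, 39 were lower and 47 had a ratio under 1 (median −0.82). By the same rule 8.62% of all genes were lower and 8.16% higher. Of the 3 replication genes of this list with the most UMIs, the histone mRNA factor Slbp stood at 105 and 95.9 CPM (0.913), the histone chaperone Nasp at 91.5 and 83.6 CPM (0.913) and Gmnn, geminin, which blocks relicensing, at 76.2 and 52.5 CPM (0.688). Of the mitosis list, Cks2 stood at 143 and 131 CPM (0.92), the condensin subunit Smc4 at 103 and 78.5 CPM (0.761) and Cks1b at 98.4 and 56.9 CPM (0.578).

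Regulators upstream of S phase had medians nearer to 0. Of 6 G1 cyclins and kinases none was past 1.5-fold over all kept cells, against 8.62% of all genes lower and 8.16% higher, and 3 of the 6 had a ratio under 1 (median log2 ratio −0.11). Ccnd1, cyclin D1, stood at 225 and 181 CPM (0.803) over all kept cells, but at 12.6 and 22.7 CPM in CD8 T-like cells (1.81, 1.33 to 2.48). Over all kept cells its partner kinase gene Cdk4 stood at 134 and 98.4 CPM (0.733) and Ccnd3 at 94.7 and 114 CPM (1.2). Of 12 inhibitors and pocket proteins, 2 were lower past 1.5-fold (8.62% of all genes) and none was higher (8.16%). In 5 of the 12 the ratio was under 1, the lowest log2 ratio was −0.83 and the median 0.11. The 3 with the most UMIs were all above the vector control: Cdkn1a, the inhibitor p21, stood at 362 and 485 CPM (1.34), and the antiproliferative genes Btg1 at 821 and 1102 CPM (1.34) and Btg2 at 330.4 and 477 CPM (1.44). In CD8 T-like cells Cdkn1a stood at 117 and 211.5 CPM (1.8, 1.63 to 1.99), and in phagocyte-like cells at 448 and 600 CPM (1.34, 1.31 to 1.37). Ccnd1 was also higher in phagocyte-like cells (244 CPM in the vector control and 211 CPM in the TMEM16F KO library) than in CD8 T-like cells. Macrophage markers in CD8 T-like cells summed to 494 CPM (vector control) and 900 CPM (TMEM16F KO). The part of phagocyte RNA in the Ccnd1 and Cdkn1a ratios of CD8 T-like cells was not tested.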

How the data were processed

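Single-cell RNA was measured with 10x Genomics 3′ droplet chemistry in 2 libraries. The authors deposited whole-number UMI counts per gene and barcode. Per the file headers, the matrices come from Cell Ranger 8.0.0. The submitters' processing notes name mm10 as the genome build and list Seurat 3.1.1 as a tool. For the annotation behind the counts nothing is stated in the sources used here; gene positions were taken from GENCODE vM21. The matrices hold 5253 and 5993 barcodes with 46338994 (vector control) and 49777630 UMIs (TMEM16F KO). The study states 10782 cells, and the filter here kept 10716 of 11246 barcodes. Each library shares 10 barcodes with the other.

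A barcode was kept if it had 200 or more genes and a mitochondrial share below 20%. Scrublet's automatic threshold marked 0 barcodes in both libraries and so did not work. The highest scores were left out instead, at 0.8% per 1000 barcodes (221 and 287). A class needed a marker score of at least 0.2 (UMIs per 10000 over a reference level), a lead of 1.5 times over the next class and 3 marker UMIs. CD8 T-like and Treg-like cells needed 2 own marker UMIs. For Treg-like cells these could come from Foxp3, Ikzf2 or Il2ra, so a cell without a Foxp3 UMI could enter. Macrophage and monocyte markers together gave the phagocyte-like class. Reference levels and thresholds were set after marker levels had been seen, and classes differ from the study's. Unclassed cells (477 and 621) entered only the sums over all kept cells. The members and lists were chosen with earlier results of these data known. Named with values are the 5 members of each group with the most UMIs, Stmn1, Hmgb2, the extremes of each class and the 3 genes with the most UMIs of each related list; other members named are examples of their role.

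With 1 library per group no test was run. Sums have exact Poisson intervals, shares Clopper-Pearson, ratios of CPM exact conditional binomial, and ratios of shares or of ratios log-scale intervals, all at 95%. The ratio and the 1.5-fold rule were tested on simulated data. Python 3.11.15, scanpy 1.11.5, numpy 2.4.6, scipy 1.17.1, pandas 2.3.3 and matplotlib 3.10.9 were used.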

Additional observations from a re-analysis of the deposited data

Results flagged for a closer look

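The direction in DC-like cells was opposite to that in phagocyte-like cells. In the DC-like class the TMEM16F KO library stood 1.72 times the vector control for the replication genes and 1.89 times for the mitosis genes, against 0.552 and 0.501 in phagocyte-like cells. There is 1 library per group, so the difference between the classes was not tested.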

How the results depend on the processing

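In 181 recomputations of 21 results, 180 kept the side of 1 and 131 stayed within the counting interval. The exception was the mitosis sum of CD8 T-like cells, 1.03 with a doubled lead in the class rule. Over all kept cells (replication, mitosis), CPM without mitochondrial, ribosomal and haemoglobin genes gave 0.61 and 0.582, the mean over cells 0.677 and 0.639, and the median over members 0.62 and 0.565. Smaller member lists gave 0.669 for replication, and no doublet removal 0.589 for mitosis. For mitosis UMIs per replication UMI, the ratio of TMEM16F KO to vector control was 0.954. It was 0.928 without doublet removal, 0.907 with smaller lists and 0.912 by the median. In the reduced CPM, phagocyte-like cells gave 0.53 and 0.481, CD8 T-like cells 0.694 and 0.855, and stroma-like mitosis genes 0.744. With each cell weighted alike, the replication ratio was 0.57 in phagocyte-like, 0.837 in other T-like, 0.627 in NK-like and 1.35 in DC-like cells, and the mitosis ratio 0.843 in CD8 T-like, 0.694 in Treg-like, 0.585 in NK-like, 1.46 in DC-like and 0.659 in stroma-like cells. Smaller lists gave 0.616 and 0.517 in phagocyte-like cells and 0.615 for replication in NK-like cells. A doubled lead gave, for replication, 0.816 in CD8 T-like, 0.484 in NK-like and 1.39 in DC-like cells, and for mitosis 0.484 in phagocyte-like, 0.658 in Treg-like, 0.667 in other T-like, 0.333 in NK-like and 0.563 in stroma-like cells. Classes from clusters gave, for replication, 0.741 in Treg-like, 0.54 in other T-like, 0.732 in NK-like and 1.12 in DC-like cells, and for mitosis 0.563 in other T-like and 0.417 in NK-like cells. A pair of alternatives was chosen after seeing the data: C1q bands weighted alike gave 0.598 and 0.6 in phagocyte-like cells, and DC-like cells without those holding at least 3 T cell marker UMIs gave 1.48 and 2.63. The cycling share ratio was 0.463 with a cut of 2 UMIs more, and in phagocyte-like cells 0.349 with that cut and 0.344 at 4000 UMIs per cell. The cause of these shifts was not tested. No paired analysis was possible because each group is 1 library with no replicate number, and for the same reason no replicate could be left out. Depth limits the members with under 20 UMIs in a class and the shares of classes with under 200 cells.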
